A study of Mus musculus with 8 samples.

Results

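The mitochondrial ribosomal proteins described here are the nuclear genes with Mrpl or Mrps symbols, which encode most of the protein of the ribosome inside mitochondria. They were chosen by name: protein-coding genes whose GENCODE M21 symbol is Mrpl or Mrps followed by a number and, in some cases, a letter, with at least 80 reads summed over all libraries. Of 78 such genes 77 met the count minimum, 48 with a large subunit symbol (Mrpl) and 29 with a small subunit symbol (Mrps), among 53465 genes in the deposited files. The gene left out was Mrpl53, with 49 reads in all, while the member nearest above the minimum, Mrps36, had 3636. All 77 members also passed the filter on low counts used for testing.

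RNA had been sequenced from regulatory T cells (Tregs) that were polarized in culture from CD4+ T cells of wild-type C57BL/6 mice. The labels name spleen as the tissue, and their protocol names spleen and peripheral lymph nodes. Cells grew on coated anti-CD3 with anti-CD28, IL-2, TGF-β and antibodies that block IFN-γ, IL-12 and IL-4, and at 72 h were divided into cultures without (control, n = 4) or with 50 µM BMS309403 (n = 4), an inhibitor of fatty acid-binding proteins that the study uses against FABP5. Both groups share strain, genotype and polarizing medium, and no vehicle, exposure time, age or sorting of the polarized cells is given in the sources used here. Whether a replicate is a mouse or a culture of its own is left unstated in the labels; the p-values therefore cover only the spread among these 8 libraries, which may be technical.

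The mitochondrial ribosome, or mitoribosome, translates the few messenger RNAs encoded in mitochondrial DNA, all of which specify subunits of the respiratory chain and ATP synthase. Its ribosomal RNAs come from mitochondrial DNA, whereas its proteins are nuclear products that are imported. Part of them are homologs of bacterial ribosomal proteins and part are found in mitochondrial ribosomes alone. Activated T cells raise mitochondrial translation as they grow, and Tregs are known to depend on respiration.

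Libraries held between 32923433 (control replicate 1) and 44644485 counts (control replicate 2), with treated libraries inside that range. Foxp3, the defining Treg transcription factor, lay at 901 to 1029 CPM (a depth-adjusted read count, with library totals scaled by the TMM method) in control and at 1234 to 1262 CPM in treated libraries, so the marker that defines the labelled cells was abundant in both groups. Of the Treg and T cell markers, Foxp3, Il2ra and Ikzf2 were higher and Cd3e lower. Summed markers of other cells were low in both groups: 9.89 to 14.3 CPM in control and 10.2 to 14.9 CPM in treated libraries for the 2 CD8 genes, 5.26 to 7.76 and 4.42 to 6.62 CPM for 4 B cell genes, 1.72 to 3.24 and 0.742 to 2.64 CPM for 4 myeloid genes, and at most 0.472 CPM for 3 dendritic cell, 0.0509 CPM for 3 NK cell and 0.341 CPM for 3 erythroid genes. Ncr1, Klra8, Hbb-bs and Col3a1 had no reads at all. Of these markers Adgre1 (myeloid, 0.315 to 0.713 CPM in control and 0.0961 to 0.207 CPM in treated libraries, adjusted p = 0.000940), Cd79b (B cell, 1.40-fold, 0.00691) and Pecam1 (1.19-fold, 0.000699) were lower with treatment in edgeR's test; their part in the results was not tested. The stromal list lay at 113 to 122 CPM in control and 96.2 to 103 CPM in treated libraries, nearly all of it from Pecam1, which T cells also express. In bulk RNA, fewer cells of a type and less RNA per cell cannot be told apart.

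In the fit without a replicate block, mitoribosomal protein mRNAs changed little under BMS309403 and were called less often than all tested genes. Those called were mostly lower. Of the 48 large subunit genes 8 fell and 1 rose, and of the 29 small subunit genes 6 fell and 1 rose, in edgeR's quasi-likelihood test at an adjusted p under 0.05. In all, 20.8% of the members were called, while 36.8% of the 14443 tested genes were. The share called lower was 18.2% among members, against 18.1% of all tested genes; the share called higher was 2.60%, against 18.7%. With the replicate number as a block, 16 more members passed, and the share called lower was above the background in both subunits. A share below or above the background is a description here, since no test was made over the list.

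The changes themselves were small. The largest fall, that of Mrpl34, was 1.40-fold, and the smallest among the 14 called falls, that of Mrps15, was 1.14-fold. The median log2 fold change was -0.07 in the large and -0.04 in the small subunit, beside 0.01 over all tested genes. The median size of change regardless of sign was 0.09 among the members and 0.17 among all tested genes, with median standard errors of 0.0669 and 0.0748. Estimates lay below 0 for 35 large and 22 small subunit genes, or 57 of 77, against 49% of all tested genes.

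**Figure D1:**
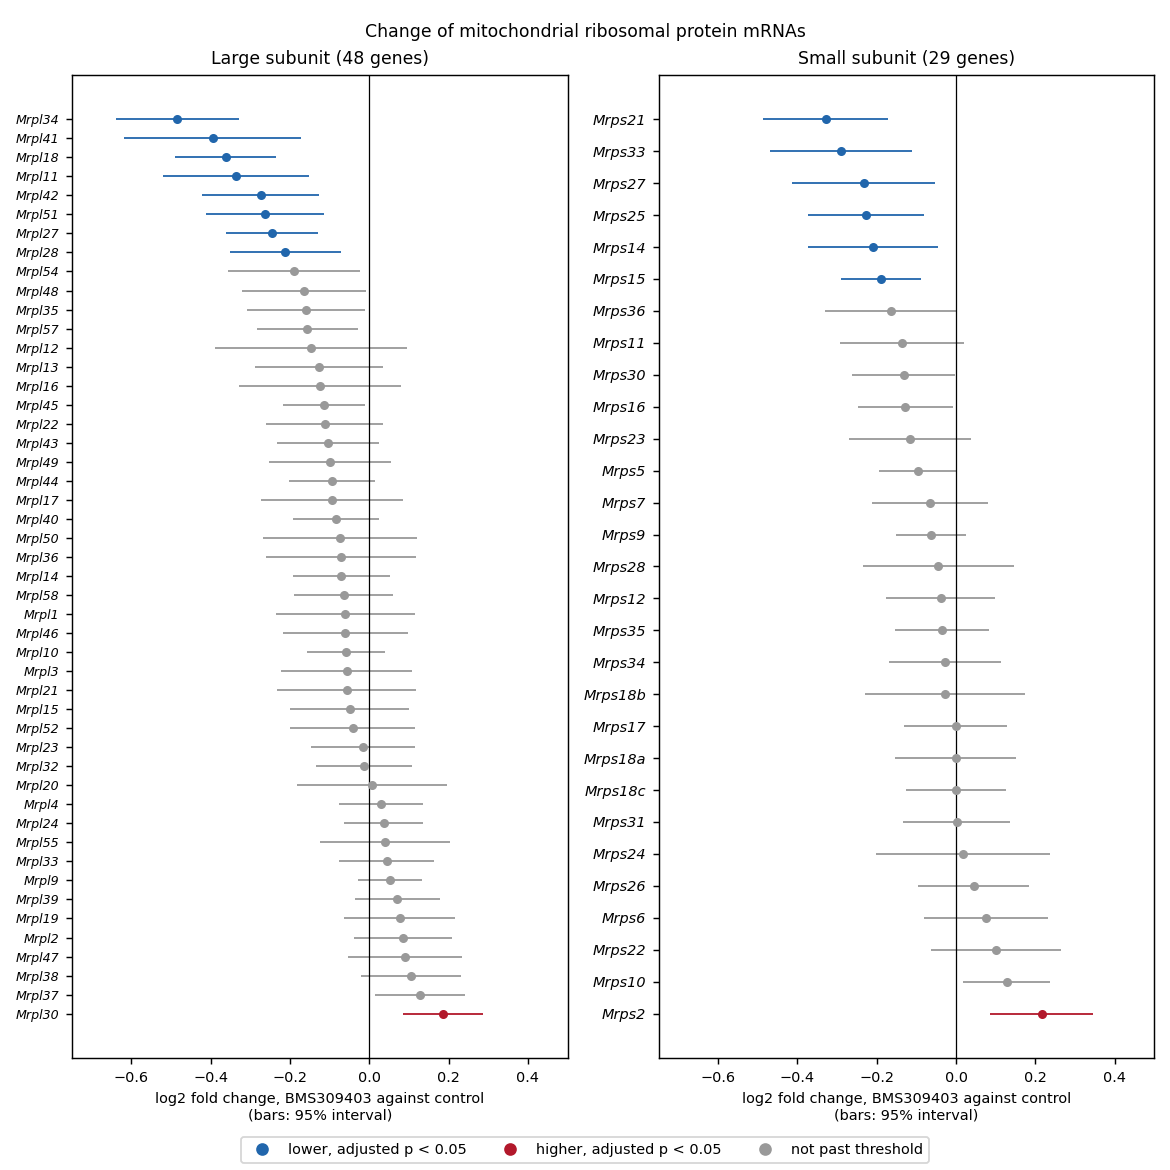
Log2 fold change (x axis) of each of the 48 large subunit (left) and 29 small subunit (right) genes, with 95% intervals from edgeR's quasi-likelihood fit of 4 treated against 4 control libraries; colour marks the call at an adjusted p under 0.05. Called falls run from -0.48 (Mrpl34) to -0.19 (Mrps15), and the called rises are Mrpl30 (0.19) and Mrps2 (0.22).

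Among large subunit proteins with a bacterial counterpart, Mrpl34 changed most. It encodes the homolog of bacterial L34, a very small rRNA-binding protein, and is also the shortest member, with 607 exonic bases (ENSMUSG00000034880, chromosome 8, 71464959 to 71465747 on the plus strand in GRCm38). The stretch just upstream of its start site, which carries a binding word of the ETS transcription factor family in capitals, is printed because this gene fell most. This stretch was picked for the searched words it holds.
Mrpl34 upstream (chr8:71464866-71464925, plus strand, GRCm38.p6, RefSeq start): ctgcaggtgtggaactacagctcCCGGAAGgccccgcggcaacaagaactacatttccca
Control replicates 1 to 4 stood at 32.1, 31.1, 30.9 and 28.0 CPM, and treated replicates at 24.7, 20.5, 21.9 and 20.2 CPM. All treated libraries lay below all control libraries. The log2 fold change was -0.48 (SE 0.07, adjusted p = 0.000254).

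Mrpl18, the homolog of the protein that binds 5S rRNA in bacteria, was the most abundant large subunit member per length and also fell. Control libraries held 79.4, 72.7, 71.9 and 69.9 CPM and treated libraries 62.6, 55.2, 57.9 and 52.9 CPM, with no overlap. Its log2 fold change was -0.36 (SE 0.06, adjusted p = 0.000521). Mrpl27, whose bacterial homolog reaches the site of peptide bond formation, went from 30.5 ± 0.695 to 25.8 ± 1.47 CPM (SD, n = 4), again without overlap (log2 fold change -0.25, adjusted p = 0.00357). With the per-library trend on transcript length removed its adjusted p was 0.0549. Exons of Mrpl18 and Mrpl27 overlap those of expressed genes on the opposite strand over 10.1% and 7.61% of their length. Their levels are therefore uncertain in part.

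Mrpl11, at the base of the stalk that recruits translation factors, fell by 0.34 on the log2 scale (adjusted p = 0.00864). Its control libraries ran from 26.2 to 33.3 CPM and its treated libraries from 20.7 to 25.8 CPM, so the highest treated library stood just under the lowest control library. Mrpl28 fell by 0.21 (adjusted p = 0.0219), with overlapping groups of 46.2 to 53.4 and 40.0 to 47.2 CPM. This call was lost without treated replicate 2 (adjusted p = 0.0726) or treated replicate 4 (0.0697), and with the length trend removed (0.0969).

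The other partners of the stalk stayed short of the threshold. Mrpl10, which anchors the stalk, averaged 82.0 ± 3.02 CPM without and 78.8 ± 3.54 CPM with the inhibitor (95% interval of the log2 fold change -0.16 to 0.04). Mrpl12, the stalk protein that also binds the mitochondrial RNA polymerase, was the most variable member between control libraries, at 72.3 ± 13.3 CPM, and averaged 65.2 ± 6.86 CPM under treatment (SD, n = 4). Its interval of -0.39 to 0.09 was the widest toward lower values among the members not called. With the replicate number as a block it passed as lower (adjusted p = 0.00829).

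Among large subunit proteins found only in mitochondria, Mrpl41, Mrpl42 and Mrpl51 were lower. Mrpl41 (chromosome 2, 24974117 to 24975098, minus strand) had 27.8, 22.3, 22.6 and 19.5 CPM in control and 19.3, 15.6, 18.4 and 16.6 CPM in treated replicates 1 to 4. The groups were parted by only a small gap between control replicate 4 and treated replicate 1, and the log2 fold change was -0.40 (SE 0.10, adjusted p = 0.0102). Mrpl42 went from 46.8 ± 4.66 to 38.7 ± 1.91 CPM without overlap (adjusted p = 0.00799). Mrpl51 went from 55.5 ± 3.88 to 46.3 ± 4.05 CPM (adjusted p = 0.00986); here treated replicate 1, at 52.0 CPM, lay just above control replicate 4, at 51.7 CPM.

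Mrpl45, which holds the exit tunnel close to the inner membrane, averaged 73.2 ± 2.32 CPM without and 67.7 ± 3.79 CPM with the inhibitor (log2 fold change -0.11, adjusted p = 0.0817). It passed with the replicate block (adjusted p = 0.0118) and without treated replicate 3 (0.0222). Mrpl58, a hydrolase that releases stalled peptides and is built into the large subunit, and Mrpl32, which is matured by an inner membrane protease, had 95% intervals of -0.19 to 0.06 and -0.13 to 0.11. At this replication neither differed detectably between the groups.

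A single large subunit gene rose. Mrpl30, the homolog of bacterial L30 (chromosome 1, 37890477 to 37898535, plus strand), had 79.0, 74.3, 76.7 and 72.0 CPM in control and 90.7, 83.4, 87.5 and 81.9 CPM in treated libraries. All treated libraries were above all control libraries, and the log2 fold change was 0.19 (SE 0.05, adjusted p = 0.00826). Over leaving out each library in turn its adjusted p ran from 0.00325 to 0.0318.

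In the small subunit, Mrps21, a homolog of bacterial S21 and the most abundant small subunit member per length, fell most. Its control libraries stood at 37.2, 33.7, 36.9 and 30.8 CPM and its treated libraries at 29.6, 26.9, 28.7 and 25.1 CPM. Every treated library was below every control library (log2 fold change -0.33, SE 0.07, adjusted p = 0.00393). Mrps15, whose bacterial homolog is an early binder of small subunit rRNA, had 44.8, 45.0, 45.0 and 42.1 CPM in control and 40.2, 38.2, 39.8 and 37.0 CPM in treated libraries, with no overlap and an adjusted p of 0.00731. These were the only small subunit falls without overlap, 2 of 29 genes, against 16.1% of all tested genes; in the large subunit there were 6 of 48. Rises without overlap were Mrpl30 and Mrps2 alone, against 17.7% of all tested genes.

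The remaining small subunit falls were Mrps33, Mrps25 and Mrps27, all specific to mitochondria, and Mrps14, a homolog of bacterial S14. Mrps33 went from 14.2 ± 1.21 to 11.6 ± 0.976 CPM (SD, n = 4; adjusted p = 0.0163), and its adjusted p was 0.0512 without treated replicate 2 and 0.0515 without treated replicate 4. Mrps25 went from 26.6 ± 1.52 to 22.8 ± 1.87 CPM (adjusted p = 0.0201), and lost its call without treated replicate 2 (0.0624), 3 (0.0536) or 4 (0.0637). Annotated exons of Mrps25 share 69.8% of their length with Nr2c2 on the opposite strand, and no source used here says whether reads were counted by strand, so its level is uncertain.

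Mrps27, a pentatricopeptide repeat protein, and Mrps14 passed only narrowly, at adjusted p-values of 0.0449 and 0.0472. Control libraries of Mrps27 ran from 29.5 to 38.8 CPM and treated ones from 27.7 to 30.9 CPM, so the ranges overlapped. Its call was lost in 5 of 8 fits that left out a library, with an adjusted p of 0.0871 and 0.132 without control replicates 1 and 3, and of 0.108, 0.0728 and 0.114 without treated replicates 2, 3 and 4, as well as with limma-voom (0.0578) and with the length trend removed (0.0634). Mrps14 lost its call in 6 of 8, with an adjusted p of 0.0916, 0.0522 and 0.107 without control replicates 1, 2 and 3, and of 0.128, 0.0723 and 0.132 without treated replicates 2, 3 and 4, and with the length trend removed (0.0506).

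Mrps2, the homolog of bacterial S2 on the back of the small subunit (chromosome 2, 28468066 to 28471178, plus strand), was the only small subunit gene to rise. Control replicates 1 to 4 held 49.9, 43.8, 44.3 and 42.0 CPM and treated replicates 56.2, 50.5, 52.0 and 50.3 CPM. The treated libraries all lay above control replicate 1, the highest of the controls, by a small margin. The log2 fold change was 0.22 (SE 0.06, adjusted p = 0.0142), and its adjusted p stayed between 0.00105 and 0.0483 when each library was left out.

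**Figure D2:**
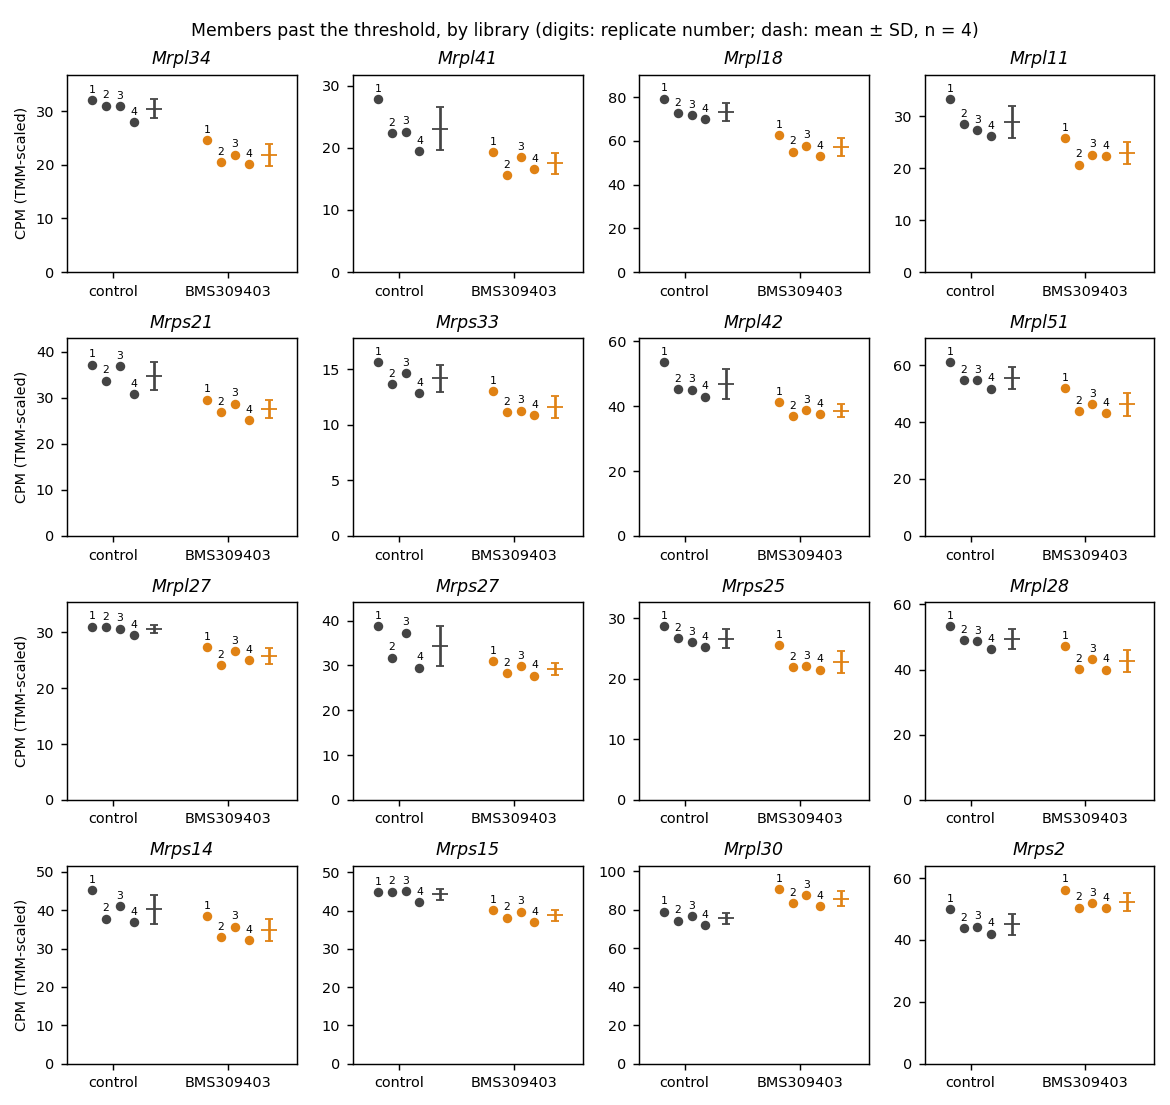
CPM (y axis, from 0) of the 16 called members in each control and treated library, with replicate numbers above the points and the mean ± SD (n = 4) as a dash with bars. Within each group replicate 1 is mostly the highest, and the groups do not overlap for 8 of the falls and for both rises.

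The 3 paralogs related to bacterial S18 had estimates near 0. Mrps18a, Mrps18b and Mrps18c had log2 fold changes of 0.00, -0.03 and 0.00 on rounding, with 95% intervals of -0.15 to 0.15, -0.23 to 0.17 and -0.13 to 0.13. Mrps18a and Mrps30 carry small subunit symbols, although their proteins sit in the large subunit of mammalian mitoribosomes. Mrps30 averaged 52.8 ± 2.89 CPM without and 48.2 ± 3.47 CPM with the inhibitor (adjusted p = 0.101). It was called lower with the replicate block (adjusted p = 0.00642), without control replicate 4 (0.0478) and without treated replicate 1 (0.0358).

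Other small subunit members with known roles also remained below the threshold. Mrps12, at the decoding site, had an interval of -0.18 to 0.10, Mrps28, the counterpart of bacterial S1, one of -0.23 to 0.14, and Mrps34, a mitochondrial addition, one of -0.17 to 0.11. Mrps34 shares 63.4% of its exonic bases with Mapk8ip3 on the opposite strand. Mrps36, now known as a part of the 2-oxoglutarate dehydrogenase complex rather than of the ribosome, had a log2 fold change of -0.17 (adjusted p = 0.110) and passed with the replicate block (0.0317) and without treated replicate 1 (0.0332).

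The members were also counted by class, taken from the ribosomal protein nomenclature: names that begin with u or b against names that begin with m. Mrps18a and Mrps18b thus count as mitochondrion-specific, although they are related to bacterial S18. Of 46 members with a bacterial homolog 8 fell and 2 rose, with a median log2 fold change of -0.06. Of 30 mitochondrion-specific members 6 fell and 0 rose, with a median of -0.09. The shares that fell, 17.4% and 20%, lay near the 18.1% of all tested genes. No test was made between these classes. For all 61 members that were not called, the 95% interval of the log2 fold change lay inside ±0.5, and 9 had an unadjusted p under 0.05 in edgeR's test. That bound exceeds even the largest called change, -0.48 for Mrpl34, so it does not show that these members were unchanged.

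The members rose and fell together from library to library. Control replicate 1 was the highest control library for 65 of 77 members, and control replicate 4 was the lowest for 68; among all tested genes these shares were 35.9% and 29.8%. In treated libraries replicate 1 was highest for 46 members and replicate 4 lowest for 37, against 31.3% and 25.7% of all tested genes. Summed over the large subunit, control replicates 1 to 4 gave 2212, 2002, 2017 and 1885 CPM and treated replicates 2013, 1859, 1984 and 1862 CPM. The 2 groups overlapped, and the spread within control exceeded the difference of the means, 2029 ± 135 against 1929 ± 80.4 CPM (SD, n = 4). Between libraries of the same number the treated sum was the lower in all 4 pairs, by more in pairs 1 and 2 than in pairs 3 and 4.

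The small subunit sums were 1121, 1016, 1032 and 952.0 CPM in control and 1026, 958.5, 1005 and 958.9 CPM in treated libraries. Here the treated sum was lower in pairs 1 to 3 and slightly higher in pair 4. The ratio of large to small subunit CPM lay between 1.94 and 1.98 in all 8 libraries, at 1.97 ± 0.0106 in control and 1.95 ± 0.0166 in treated libraries. The large subunit took 0.201% ± 0.0116 and the small subunit 0.102% ± 0.00598 of all control counts.

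The direction of the members differed with the library number. Treated replicate 1 lay below control replicate 1 for 71 of 77 members, replicate 2 for 60, replicate 3 for 43 and replicate 4 for 37, while among all tested genes these shares were between 48.4% and 49.8%. In all 4 same-numbered pairs, 30 members (39.0%) were lower and 4 (5.2%) higher. Among all tested genes 29.0% were lower and 30.8% higher in all 4 pairs. Without control replicate 1 the medians were -0.02 in the large and -0.01 in the small subunit; the counts called were then 8 lower and 3 higher, and 5 lower and 4 higher. Without control replicate 4 the medians were -0.12 and -0.09, with 12 and 8 genes lower and 1 higher in each. The background moved as well. Over the fits that left out a library, 2007 to 2779 of all tested genes were called lower and 2078 to 2939 higher. Whether the members' counts moved beyond it was not tested.

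With the replicate number as a block, 17 large subunit genes were lower and 2 higher, and 11 small subunit genes were lower and 2 higher. The block also raised the background to 52.4% of all tested genes called, 25.8% lower and 26.6% higher. In both subunits the share called lower was above that background and the share called higher was below it. All 16 members called without it kept their call, and 16 more passed. The largest of these changes were those of Mrpl54 (log2 fold change -0.19 without the block, adjusted p = 0.00405 with it), Mrps36, Mrpl48 (-0.16, 0.0100) and Mrpl35 (-0.16, 0.0156), and Mrpl37 and Mrps10 were the added rises. Among members called without the block, Mrpl30, Mrps2 and 9 falls (Mrpl11, Mrpl18, Mrpl27, Mrpl34, Mrpl41, Mrpl42, Mrpl51, Mrps15 and Mrps21) held in all 8 fits that left out a library.

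**Figure D3:**
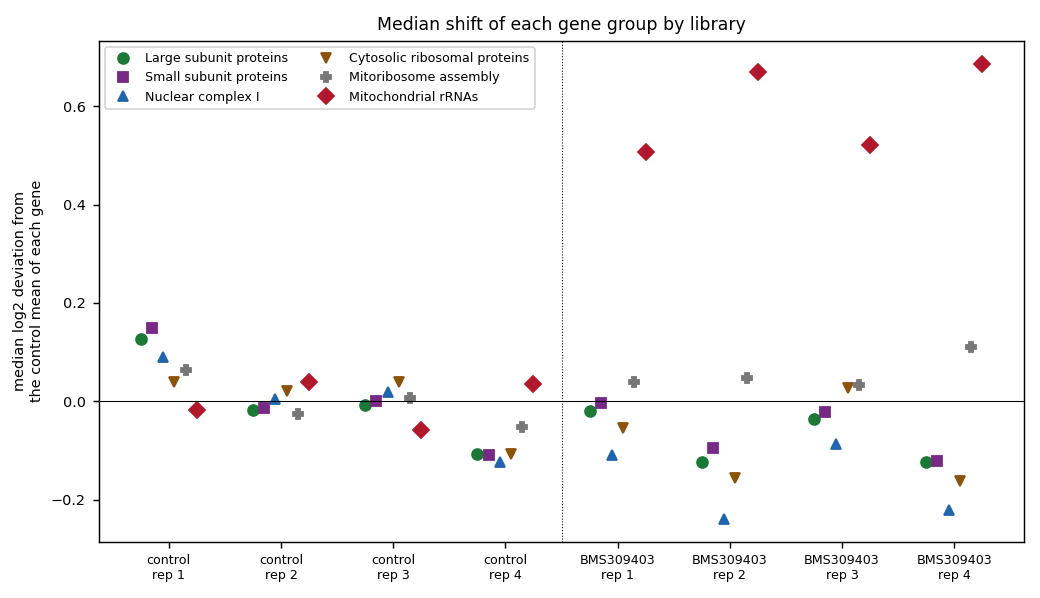
Median log2 deviation from each gene's control mean (y axis) for 6 gene groups in the 4 control and 4 treated libraries (x axis). Large and small subunit points lie side by side in every library, highest in control replicate 1 (0.13 and 0.15) and near -0.11 in control replicate 4, while the mitochondrial rRNAs part the groups.

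Levels between members were compared per length, as CPM per kilobase of annotated exon in control libraries. They spanned 15.5-fold, from 3.39 ± 0.116 for Mrps10 to 52.6 ± 2.96 for Mrpl18 (SD, n = 4), with medians of 16.3 in the large and 12.2 in the small subunit. In the large subunit the highest were Mrpl18, Mrpl34 (50.3 ± 2.93) and Mrpl10 (48.0 ± 1.77), which do not differ beyond their spread from their neighbours in this order. The lowest were Mrpl48 (3.71 ± 0.361), Mrpl33 (3.76 ± 0.191) and Mrpl23 (3.85 ± 0.259), again within each other's spread.

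In the small subunit Mrps21 stood apart at 46.9 ± 4.06 CPM per kilobase, followed by Mrps23 at 32.4 ± 3.44 and Mrps15 at 26.1 ± 0.825. Mrps10, Mrps35 (3.54 ± 0.202) and Mrps25 (4.05 ± 0.232) were lowest. The choice of length matters for these values: per kilobase of the longest transcript the medians were 22.4 and 18, Mrpl20 (62.6) was highest in the large subunit, and Mrps25 (4.39) was lowest of all. The order of members was nearly the same in treated libraries, with a Spearman correlation of 0.99 across the 77 genes, which share the same libraries and lengths.

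**Figure D4:**
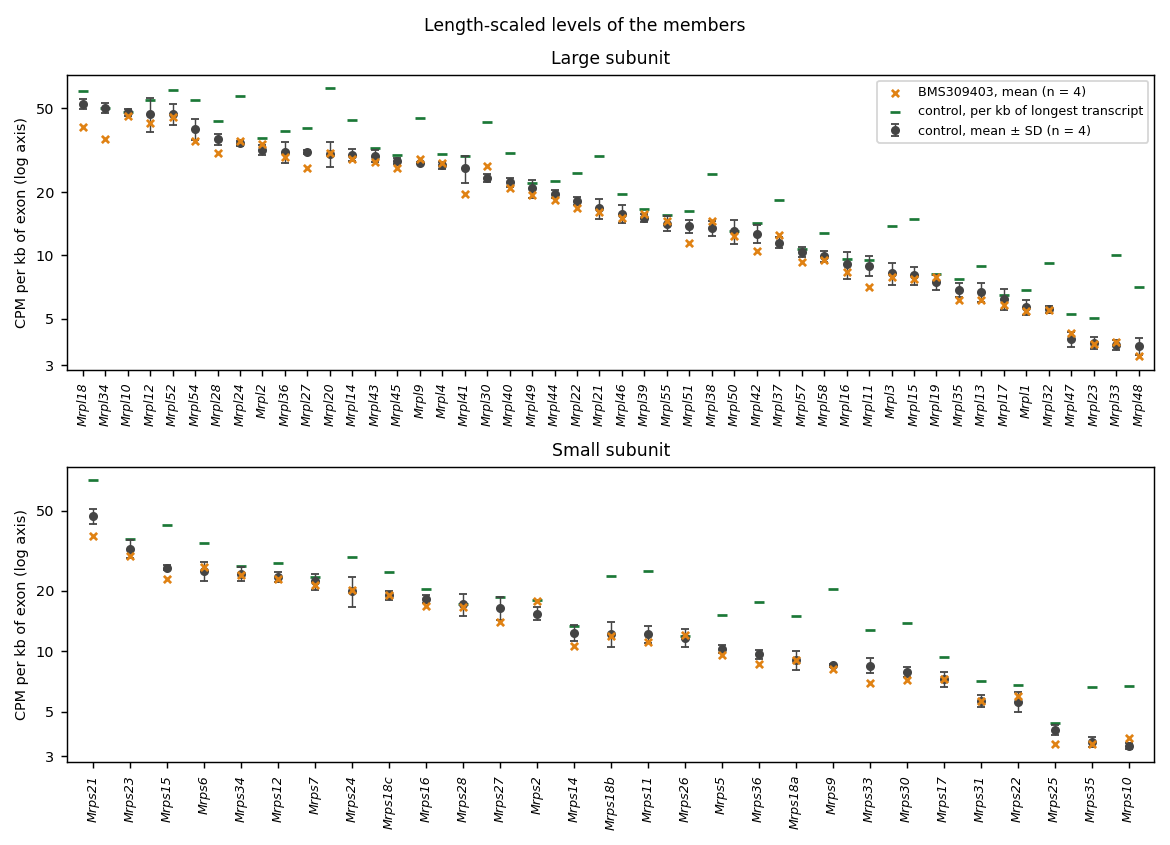
CPM per kilobase of annotated exon (log axis) of each member, in order of its control level, for the large (top) and small (bottom) subunit: control mean ± SD (n = 4), treated mean, and the control value per kilobase of the longest transcript. Control levels run from 52.6 for Mrpl18 to 3.39 for Mrps10, and treated means stay close to them.

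Exonic length differed between members that fell and members not called. The 14 members that fell had a median exonic length of 1680 bases, against 2550 bases for those not called. The 2 that rose had 2919 and 3226 bases. Across the 77 members the log2 fold change had a Spearman correlation of 0.23 with exonic length, and across 14427 tested genes with an annotated length one of 0.18; genes are not independent replicates. With the length of the longest transcript the members' correlation was 0.145 (0.105 in the large subunit), and the median log2 fold change was -0.07 in members of up to 1500 exonic bases and -0.06 in longer ones. Of 19 members with up to 1500 exonic bases 6 fell and 0 rose, while 17.5% of all tested genes of that length fell and 6.88% rose. Of 58 longer members 8 fell and 2 rose, while 18.2% of all tested genes over that length fell and 20.8% rose. With the per-library trend on length removed, 6 large subunit genes were lower and 2 higher, 5 small subunit genes lower and 1 higher, and the medians were -0.03 and -0.04. Mrpl34, Mrpl41, Mrpl18, Mrpl11 and Mrps21 were among those that kept their calls there. Whether length has a part in the falls was not tested.

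Other parts of the mitoribosome and its assembly moved in both directions. Both mitochondrial rRNAs rose. For mt-Rnr1, the small subunit rRNA, control libraries held 125, 137, 129 and 136 CPM and treated libraries 213, 255, 231 and 261 CPM (log2 fold change 0.87, SE 0.06, adjusted p = 9.12e-07). For mt-Rnr2, the large subunit rRNA, they held 206, 205, 189.8 and 205 CPM and 252, 263, 237 and 263 CPM (0.33, SE 0.05, adjusted p = 0.000195). Neither rRNA showed any overlap between groups. These values come from poly(A)-selected libraries, which sample rRNA only in part.

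Of 5 mitoribosomal proteins whose symbols lack the Mrp stem, Dap3, a small subunit GTP-binding protein, went from 112 to 101 CPM (log2 fold change -0.15, adjusted p = 0.0100), and Ptcd3, Chchd1, Aurkaip1 and Gadd45gip1 were not called. In mitoribosome assembly and rRNA modification, 8 of 29 genes rose and 3 fell, with a median log2 fold change of 0.06. Mettl17, an assembly factor of the small subunit, went from 28.2 to 36.7 CPM (0.38, adjusted p = 0.000200), and Mterf3, which acts in large subunit assembly, rose by 0.31 on the log2 scale (adjusted p = 0.000376). Mpv17l2 and the rRNA methyltransferase gene Trmt2b fell by 0.39 each (adjusted p = 0.000134 and 2.51e-05).

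In the list of mitochondrial translation factors, 1 of 17 genes rose and 1 fell, with a median of 0.01. The share called, 11.8%, was below the 36.8% of all tested genes. Mtfmt, which formylates the initiator tRNA, rose by 0.17 (adjusted p = 0.0439), and Slirp, a partner of mitochondrial mRNAs, fell by 0.22 (adjusted p = 0.00841). The rise of Mtfmt was not called after RLE normalization, without a filter on low counts or with DESeq2. The listed symbol Mtrfr matched no gene.

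Among the mRNAs the mitoribosome translates, and in related nuclear groups, calls were falls. Of 11 tested mitochondrially encoded mRNAs 9 fell (81.8%, against 18.1% of all tested genes) and 0 rose, with a median of -0.45. That median is the value of mt-Nd3, which averaged 0.876 and 0.651 CPM and was not called. Among abundant mRNAs, mt-Nd1, mt-Nd5, mt-Co1 and mt-Nd4 fell by 0.44, 0.35, 0.34 and 0.33, and mt-Nd2 (-0.18) was not called. The largest falls were those of mt-Co2, mt-Atp6, mt-Cytb and mt-Co3; mt-Cytb averaged 1150 and 670.2 CPM, while the others averaged between 0.247 and 1.01 CPM. Of 37 nuclear genes with complex I symbols, 18 fell and 0 rose, with a median of -0.16. The share that fell was 48.6%, against 18.1% of all tested genes. Ndufa4 is counted among them although it is now placed in complex IV. Ndufb2, Ndufa4, Ndufv3 and Ndufa5 led with falls of 0.50, 0.45, 0.45 and 0.36 on the log2 scale. Of 79 cytosolic ribosomal protein genes 14 fell and 0 rose, with a median of -0.09; the share that fell, 17.7%, was close to the 18.1% of all tested genes. Rps25, Rpl35 and Rpl31 were among these, with falls of 0.27, 0.23 and 0.20; many of these genes have near-identical processed copies, so their counts are uncertain. The falls in complex I and in cytosolic ribosomes came to 10 and 5 with the length trend removed, and 29 and 35 with the replicate block. No test was made between these groups and the members.

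**Figure D5:**
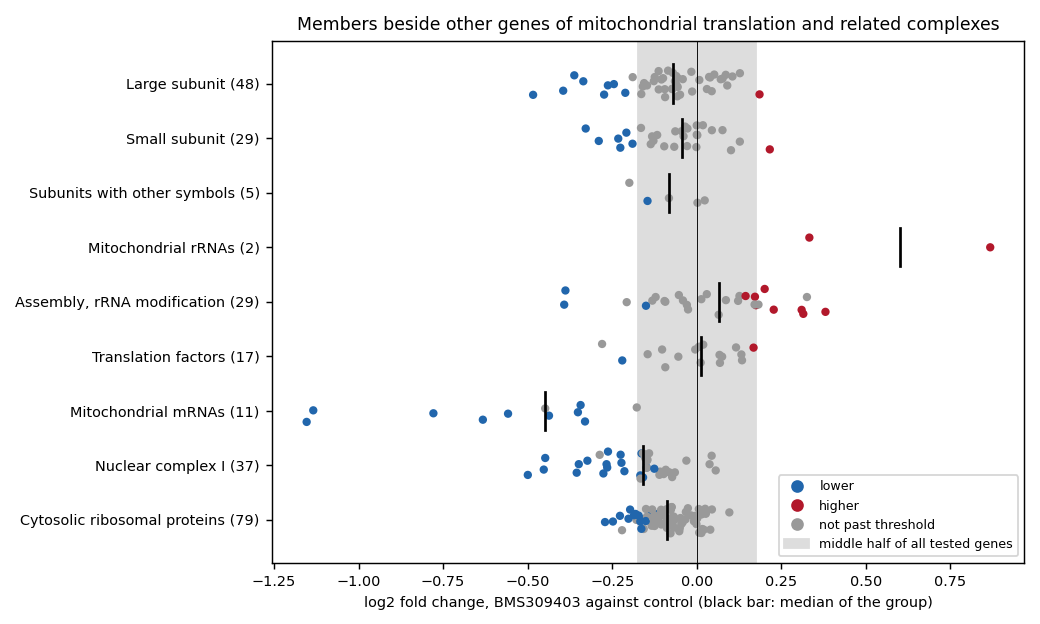
Log2 fold change (x axis) of each tested gene in the large and small mitoribosomal subunit and 7 further groups (number tested in brackets), coloured by call, with the group median as a black bar and the middle of all tested genes, from the lower to the upper quartile, in grey. Most members lie inside the grey band of -0.17 to 0.17, the rRNAs lie above it and the mitochondrial mRNAs mostly below it.

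Many members start close to the start of a gene on the opposite strand. A protein-coding gene on the opposite strand started within 1000 bases of the start of 33 of 77 members, or 42.9%, compared with 16.9% of tested protein-coding genes; this is a property of the annotation and not of the treatment. Mrpl46 and Mrps11, a large and a small subunit gene, form such a pair with each other. Their log2 fold changes were -0.06 and -0.14, and neither was called in the fit without a block. Mrps11 was called lower with the replicate block (adjusted p = 0.0329) and without control replicate 4 (0.0405). Of 6 called members with a tested partner, 4 had a partner called in the same direction, 2 a partner not called and 0 a partner called in the opposite direction. Over all 31 tested partners 7 were higher and 6 lower, or 41.9% called, beside 36.8% of all tested genes. Of 25 uncalled members with a tested partner, 9 had a partner that was called. Most of these partners went against the member's own estimate: Mtbp, Tmem63b, Wdfy1, Ndufb5, Apba3, Gga3 and Helq, the last beside Mrps18c at -0.0002. Psma2 and Ska3 went the same way as their members. Wdfy1, beside Mrpl44, had a log2 fold change of 0.56 and Tmem63b, beside Mrpl14, of 0.50, where the members had -0.09 and -0.07. How often such partners share a direction over all tested genes was not computed.

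Mrpl30 and Mitd1, which acts in cell division, start 66 bases apart and both rose. Mitd1 went from 30.6 ± 1.42 to 40.1 ± 2.60 CPM (SD, n = 4; log2 fold change 0.39, adjusted p = 0.000275). Mrpl51 and Ncapd2, a condensin subunit, start 100 bases apart and both fell, Ncapd2 from 588 ± 28.2 to 467 ± 5.03 CPM (adjusted p = 0.000108). Mrpl18 overlaps at its start with Tcp1, a chaperonin subunit (log2 fold change -0.16, adjusted p = 0.0392), and Mrpl27 with the nuclease gene Eme1 (-0.19, adjusted p = 0.0130). Both pairs share exonic bases on opposite strands. Whether reads were counted by strand is not stated, so the shared direction within these pairs is uncertain. For Mrpl41 and Mrps27 the partners Pnpla7 and Ptcd2 were not called. The bases between 2 pairs of start sites, and a stretch upstream of Mrpl41, follow, read along the member's strand, with words of the searched factors in capitals. The Mrpl41 stretch, like that of Mrpl34, was taken as the 60 bases outside annotated exons with the most letters in such words. Both upstream stretches therefore hold words by construction.
Mrpl30 to Mitd1 (chr1:37890412-37890476, plus strand, GRCm38.p6): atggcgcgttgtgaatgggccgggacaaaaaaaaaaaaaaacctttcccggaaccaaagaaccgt
Mrps27 to Ptcd2 (chr13:99344706-99344785, plus strand, GRCm38.p6): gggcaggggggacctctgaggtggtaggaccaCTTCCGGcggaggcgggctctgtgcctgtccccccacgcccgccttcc
Mrpl41 upstream (chr2:24975100-24975159, minus strand, GRCm38.p6): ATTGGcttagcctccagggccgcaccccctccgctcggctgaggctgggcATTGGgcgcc
The region between Mrpl30 and Mitd1, which rose, holds none of the searched words, although an NRF1 word lies 83 bases upstream of the Mrpl30 start, just past that stretch. The region between Mrps27 and Ptcd2 holds 1 ETS word, and the Mrpl41 stretch holds 2 NF-Y words.

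Words were searched on both strands in RefSeq windows from 250 bases before to 50 bases after the start, which were found for 68 of 77 members (74 windows). The ETS word CCGGAAG was present in 33.8% of the members' windows, against 17.6% of windows of all tested genes and 8.86% of all windows. The YY1 word AAGATGGCG was present in 10.8% against 2.94% and 1.40%, and the NRF1 word, GCGC repeated after any 2 bases, in 18.9% against 12.8% and 6.23%. The NF-Y word CCAAT, at 39.2% against 38% and 37.4%, and the Myc family E-box CACGTG, at 9.46% against 9.77% and 7.15%, were about as frequent as elsewhere. Among windows of the 14 members that fell, 7 had the ETS word, those of Mrpl18, Mrpl27, Mrpl34, Mrpl51, Mrps21, Mrps27 and Mrps33, and 0 had the E-box; of 58 windows of members not called, 31.0% had the ETS word. These matches describe letters in the windows and say nothing of binding.

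Exons of 32 members overlap those of another gene, for 8 of them over at least 20% of their length. Called members among the 32 were Mrpl18, Mrpl27, Mrpl51, Mrps25 and Mrps27. The kit keeps strand, but the strand setting used in counting is not stated in the labels, so members that overlap an expressed gene on the opposite strand over much of their length, such as Mrps25 and Mrps34, have uncertain levels. The partner of Mrpl51, on the same strand, had 0 reads and that of Mrps27 had 6. Mrpl18 shares 141 exonic bases (10.1%) with Tcp1 on the opposite strand, which had 163966 reads against 20295 for Mrpl18. Mrpl27 shares 75 (7.61%) with Eme1 on the opposite strand, which had 9190 reads against 8774 for Mrpl27. The levels and falls of Mrpl18 and Mrpl27 are therefore uncertain as well, to an extent that was not tested.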

How the data were processed

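Poly(A)-selected, stranded RNA-seq libraries of 4 control and 4 treated Treg cultures were used. The deposited files hold whole-number read counts per Ensembl gene, not normalized; featureCounts, STAR, deepTools and DESeq2 and the build GRCm38 are named in the submitters' processing notes, while versions, roles and annotation release are not given in the sources used here. Groups and replicate numbers came from the titles. Symbols, coordinates and exon lengths were taken from GENCODE M21 (GRCm38), which named 53360 of 53465 IDs, and promoter windows from RefSeq (GRCm38.p6). The members and lists were chosen with earlier results of these data known.

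Counts were tested with edgeR 4.0.16 (R 4.3.3): filterByExpr, TMM, quasi-likelihood F-test of treatment over all 8 libraries, Benjamini-Hochberg adjustment over 14443 genes, calls at an adjusted p under 0.05. The SE comes from the F statistic and intervals are 95%. On data simulated from these libraries (14290 genes), 68, 66 and 66 genes were changed by 0.3, 0.6 and 1 on the log2 scale. Of these 41.8%, 69.7% and 89.2% were called, and 0.071% of unchanged genes. So few changed genes make the adjustment stricter than in the data, where 36.8% were called. These shares therefore do not give the power for the members. Replicates differed by more than sampling noise (chi-square per degree of freedom 3.08 to 24.2). Deviations of same-numbered libraries correlated at 0.384, 0.145, 0.106 and 0.264, each above 0.1, and so equal numbers meet the rule for pairs. Libraries of different numbers correlated at -0.289 to 0.208. The highest of these, control replicate 4 with treated replicate 2, exceeded the same-numbered values of replicates 2 and 3. The pairing thus comes from the data, not from the labels, and is less clear for those replicates. The main test has no block, and blocked values are given where they change calls. Alternatives were RLE or no scaling, no filter, DESeq2 1.42.0, limma-voom 3.58.1, the replicate block, a lowess length trend (span 0.3) removed, and leaving out each library.

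Genes named were all called members, the 3 highest and 3 lowest per length in each subunit, 14 members with separate roles, both rRNAs, up to 4 called genes per list and up to 4 members by size of change among those whose call a left-out library or the block changed. Mrpl37, Mrpl20, Mrpl46, Mrps11 and the head-to-head partners were picked with their values in view, and so were the promoter words and the 1000-base distance. The same holds for mitochondrially encoded mRNAs other than the 4 largest falls. A gene that this rule selects is not reported here.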

Additional observations from a re-analysis of the deposited data

Results flagged for a closer look

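In 6 of 116 groups examined a single library stood apart from the other 3 of its group, with a gap to the nearest that exceeded Dixon's 95% critical value for 4 samples; about 1 in 20 groups is marked so by chance. Among the members these were Mrps15, where control replicate 4 was at 42.1 CPM and the others at 44.8 to 45.0 CPM, and Mrps25, where treated replicate 1 was at 25.5 CPM and the others at 21.5 to 22.1 CPM. Among the compared genes, control replicate 4 was lowest for Ndufv3 (79.7 CPM, others 91.5 to 93.5) and for Mpv17l2 (19.6 CPM, others 20.9), control replicate 3 was lowest for mt-Rnr2 (189.8 CPM, others 204.9 to 206.3), and control replicate 1 was highest for mt-Co3 (1.43 CPM, others 0.848 to 0.921).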

How the results depend on the processing

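Counts that moved by over 1.5 times are given here. With the replicate block, calls were 2 higher and 17 lower (large subunit), 2 and 11 (small subunit), 3 and 15 (bacterial homologs), 1 and 12 (mitochondrion-specific), 5 lower (assembly), 29 lower (complex I), 1 and 35 (cytosolic ribosome), 2 lower (subunits with other symbols) and 3 and 3 (translation factors). With the block and the length trend removed they were 5 and 16, 2 and 10, 5 and 16, 2 and 10, 5 lower, 2 higher, 6 and 23, and 3 and 2, for the same groups in order without the other-symbol subunits. With the length trend removed alone, 2 large subunit genes were higher, 10 complex I genes lower, 3 cytosolic ribosomal genes higher and 5 lower, and 2 translation factors higher. Without a scaling factor, 2 genes of each subunit, 1 mitochondrion-specific gene and 3 translation factors were higher; translation factors had 0 higher with RLE, no filter or DESeq2. The cause of these differences was not tested.

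Leaving out each library gave 7 to 12 lower and 1 to 3 higher genes in the large and 2 to 8 and 1 to 4 in the small subunit, with medians from -0.12 to -0.02 and from -0.09 to -0.01. The other ranges were 6 to 10 lower, 2 to 4 higher and a median of -0.10 to -0.0007 for bacterial homologs, 3 to 10 lower, 0 to 3 higher and -0.11 to -0.05 for mitochondrion-specific members, 5 to 9 higher and 2 to 3 lower in assembly, 11 to 25 lower in complex I, 3 to 25 lower in the cytosolic ribosome, 1 to 2 lower for other-symbol subunits, and 0 to 2 higher and 1 to 2 lower for translation factors. All tested genes gave 2078 to 2939 higher and 2007 to 2779 lower. The 2 small subunit falls were left without treated replicate 2 or treated replicate 4. No named gene reversed a call. Counting subunits by place in the structure (50 and 26 members) left the higher and lower calls as they were. Median levels per kilobase of the longest transcript were 22.4 (large) and 18 (small).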
